A study of Mus musculus with 8 samples.

Results

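The transcripts of 9 genes for corticosteroid reception and the corticotropin-releasing hormone (CRH) system were followed in the mouse hippocampus, out of 24421 genes in the count tables. They were chosen by name and not by their values, and all 9 had a row. They were the corticosteroid receptors Nr3c1 and Nr3c2, the steroid-converting enzymes Hsd11b1 and Hsd11b2, the receptor cochaperone Fkbp4, the peptide Crh, its binding protein Crhbp and its receptors Crhr1 and Crhr2. Total RNA depleted of ribosomal RNA had been sequenced from wildtype C57BL/6J offspring labelled male. There were 4 groups with 2 libraries in each (n = 2). The IUGR week 8 group held adult offspring of dams given dexamethasone, a synthetic glucocorticoid, at 1 mg/kg per day by intraperitoneal injection on 5 days from 14.5 days post coitum. The NS week 8 group held adult offspring of dams that were injected with normal saline at those stages. The IUGR day 3 and NS day 3 groups held offspring of dexamethasone and of saline dams at postnatal day 3. The labels name the offspring of dexamethasone dams for intrauterine growth retardation. They do not say whether the 2 libraries of a group came from different animals or litters, so p-values measure only the spread between these libraries.

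Corticosterone, the main glucocorticoid of the mouse, reaches the brain from the adrenal gland and binds the mineralocorticoid receptor (Nr3c2) with high affinity and the glucocorticoid receptor (Nr3c1) with lower affinity. Hsd11b1 regenerates active corticosterone from its inert keto form inside cells, and Hsd11b2 does the reverse. CRH starts the hormonal stress response from the hypothalamus, but in the hippocampus it is made by local interneurons and acts on nearby synapses. The hippocampus is rich in both corticosteroid receptors and is known for feedback restraint of the stress axis.

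Promoter sequence is shown for 3 genes whose transcripts had separate levels at the 2 ages, so that the regions before their RefSeq starts can be compared. The Nr3c2 stretch lies inside the gene as annotated in GENCODE M21 (chr8:76899442-77245012), before a start within it. Those of Crhbp and Fkbp4 end at the edge of the annotated gene. RefSeq windows of 250 bases before the annotated start (build GRCm38.p6) were used for 6 of the 9 genes, and not for Nr3c1, Hsd11b2 and Crh. Bases that lie in an exon of the same gene in the GENCODE M21 annotation of GRCm38 were left off the end, and the Hsd11b1 window lay wholly in such an exon and is not shown. Each line runs 5′ to 3′ on the gene's strand, and capitals mark matches, on either strand, to the heat shock element GAANNTTC, the CCAAT box or the GC box GGGCGG.
Nr3c2, chr8:76902080-76902287, plus strand: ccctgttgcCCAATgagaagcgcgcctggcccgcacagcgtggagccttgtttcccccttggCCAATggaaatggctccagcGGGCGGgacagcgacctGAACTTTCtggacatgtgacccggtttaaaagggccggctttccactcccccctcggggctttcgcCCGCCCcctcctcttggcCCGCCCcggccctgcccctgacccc
Crhbp, chr13:95444925-95445081, minus strand: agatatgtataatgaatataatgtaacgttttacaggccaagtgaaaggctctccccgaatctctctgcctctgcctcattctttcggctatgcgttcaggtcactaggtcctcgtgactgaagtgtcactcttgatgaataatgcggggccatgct
Fkbp4, chr6:128438678-128438906, minus strand: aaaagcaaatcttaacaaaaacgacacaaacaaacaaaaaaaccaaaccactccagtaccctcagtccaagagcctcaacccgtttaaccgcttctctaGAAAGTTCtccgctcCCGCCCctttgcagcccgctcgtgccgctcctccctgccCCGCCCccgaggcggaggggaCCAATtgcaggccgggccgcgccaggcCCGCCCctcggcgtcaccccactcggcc

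The Nr3c2 and Fkbp4 stretches each held 1 heat shock element, 151 to 144 bases before the RefSeq start used, and 3 GC boxes. Of 32851 windows of 250 bases in the table, 6.69% held a heat shock element, 32.7% a GC box and 33.8% a CCAAT box. The whole windows were 68.4% G or C for Nr3c2, 63.2% for Fkbp4 and 47.2% for Crhbp, against a median of 52.4% over all windows. The Crhbp window held none of the 7 motifs searched, which also included the hexamer AGAACA of the glucocorticoid receptor site (16.1% of windows), the full palindrome of that site (0.00913%), the cAMP response element TGACGTCA (1.55%) and TATAAA (12.4%). No match to the 2 receptor motifs or the cAMP response element was present in any of the 6 windows. A match is a description of letters only.

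Libraries stood apart in 3 ways before any comparison. At day 3, both replicate 2 libraries held the Xist RNA of the inactive X chromosome (5130 counts in IUGR and 4998 in NS) and few counts of Y-linked genes (74 and 34), against their label of male, while the other 6 libraries had at most 81 Xist counts. The 2 libraries of a group differed more at week 8 than at day 3. At week 8 Rpph1, a short non-coding RNA, had 959735 and 2 counts in IUGR and 1002307 and 0 in NS (replicates 1 and 2). Ttr, a choroid plexus transcript, ranged from 22.2 to 6464 CPM (the count scaled to the library total). All 13 markers of granule cells and hippocampal fields had counts, and their sum ranged from 154.4 CPM to 1078 CPM. Library totals lay between 13030277 and 18993050 counts. In whole tissue, fewer cells of a type and less RNA per cell cannot be told apart.

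In both IUGR and NS offspring, transcripts of the mineralocorticoid receptor Nr3c2, the glucocorticoid-regenerating enzyme Hsd11b1 and the CRH-binding protein Crhbp rose at week 8 relative to day 3. The fold was 5.99 in IUGR and 6.16 in NS for Nr3c2, 11.4 and 10.2 for Hsd11b1, and 4.73 and 4.01 for Crhbp. No gene of the 9 was called between IUGR and NS at either age. The tests were edgeR quasi-likelihood tests over 15999 genes with Benjamini-Hochberg adjustment and a threshold of 0.05, and 8 of the 9 genes passed the filter on low counts. Between ages, 3 of these 8 were called higher in IUGR, where 16.8% of all tested genes were called (9.34% higher and 7.48% lower), and the same 3 in NS, where 14.1% were called (7.7% higher and 6.43% lower). The median log2 fold change of the 8 genes over age was 0.95 in IUGR and 1.14 in NS, beside 0.02 and 0.04 over all tested genes. In CPM, 4 of the 9 genes were higher and 1 was lower in all 4 week 8 libraries than in all 4 day 3 libraries, a separation found for 47.1% of tested genes. Within IUGR, 7 of the 9 had separate ages (66% of tested genes), and within NS 6 of the 9 (61.8%). The 7 included Hsd11b2, which did not pass the filter, with 1 and 2 counts at week 8 and 4 and 15 at day 3. They also included Crhr1, with a narrow gap in IUGR between 8.25 CPM at week 8 and 8.28 CPM at day 3 (both replicate 1). The summed level of 8 astrocyte markers, all with counts, was 4415 to 5229 CPM in IUGR and 4684 to 5364 CPM in NS at week 8, against 1069 to 1109 CPM in IUGR and 1075 to 1408 CPM in NS at day 3. That of 7 myelin markers, all with counts, was 4257 to 5551 CPM in IUGR and 5045 to 5488 CPM in NS at week 8, against 97.6 to 115 CPM in IUGR and 132 to 136 CPM in NS at day 3. Not every astrocyte marker rose with the sum. Gfap, Gja1 and Gjb6 were higher in all 4 week 8 libraries than in all 4 day 3 libraries, but Aldh1l1 was not. Aldh1l1 had 95.6 and 74.6 CPM in IUGR and 90.1 and 77.7 CPM in NS at week 8. At day 3 it had 90.7 and 94.6 CPM in IUGR and 106 and 99.3 CPM in NS. The part of these cell types in the age differences was not tested.

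**Figure D1:**
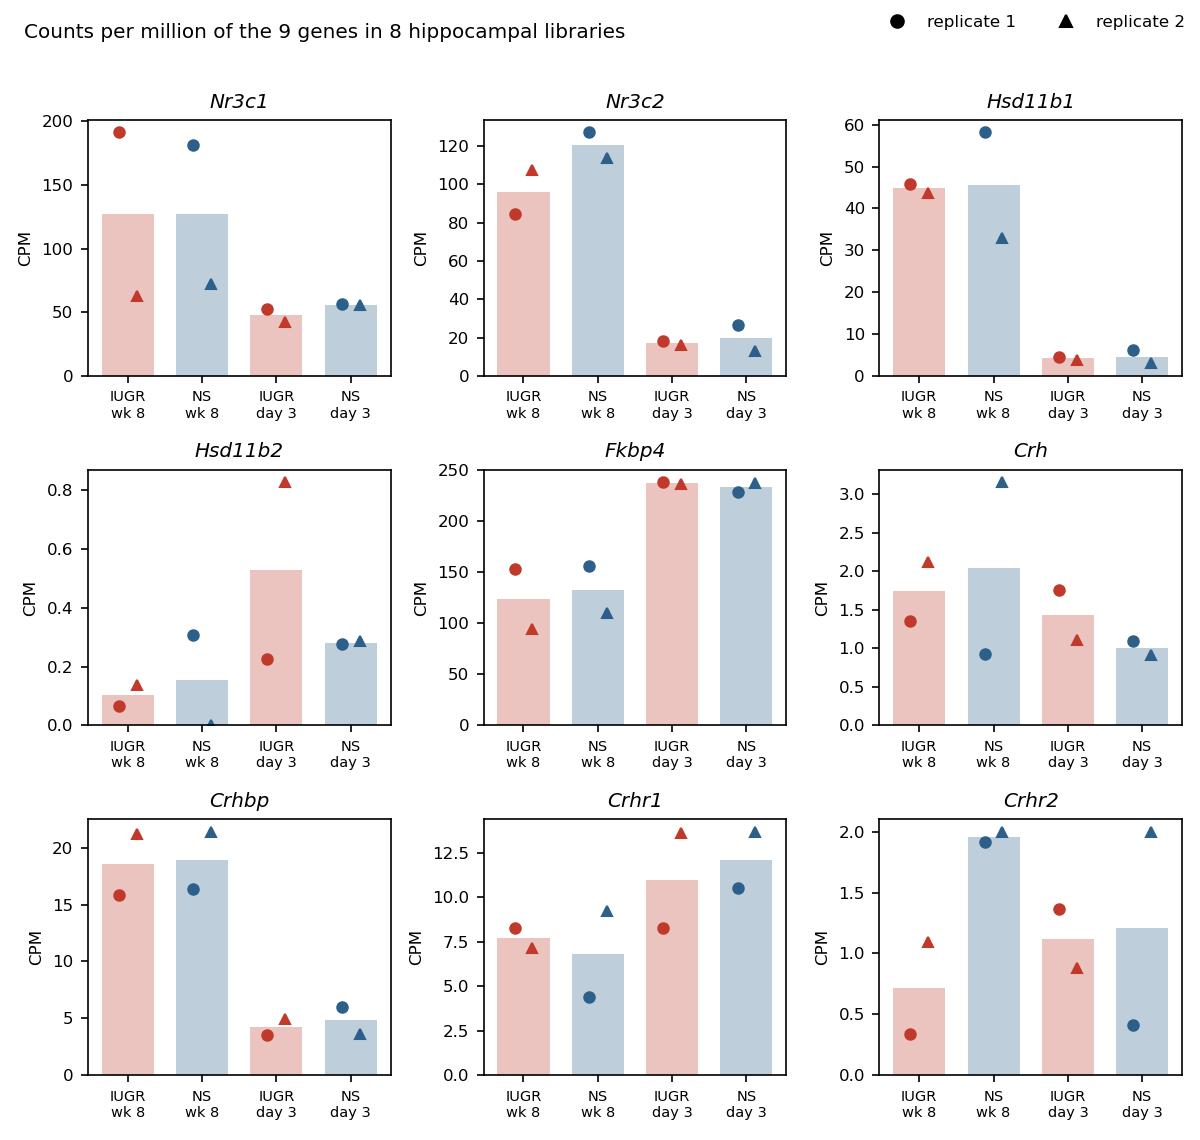
CPM of each of the 9 genes (y axis, from 0) in IUGR and NS libraries at week 8 and postnatal day 3 (x axis); circles are replicate 1, triangles replicate 2 and bars the mean of the 2. The 4 week 8 libraries sit above the 4 day 3 libraries for Nr3c1, Nr3c2, Hsd11b1 and Crhbp and below them for Fkbp4, and for Nr3c1 the week 8 replicates lie far apart.

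Nr3c2 (chr8:76899442-77245012, plus strand; GENCODE M21 on GRCm38, as for all genes) encodes the mineralocorticoid receptor. At week 8 it had 84.3 and 107 CPM in IUGR and 127 and 114 CPM in NS (replicates 1 and 2). The day 3 libraries had 18.3 and 16.2 CPM in IUGR and 26.8 and 13.1 CPM in NS. Every week 8 library was above every day 3 library, and the lowest week 8 value was an IUGR one. The log2 fold change of week 8 over day 3 was 2.58 ± 0.36 (SE) in IUGR (edgeR, adjusted p = 0.00864) and 2.62 ± 0.37 in NS (adjusted p = 0.00931). Within the replicate 1 libraries alone the difference of log2(CPM + 1) was 2.15 in IUGR and 2.21 in NS. An overlapping gene on the opposite strand, Gm10649, had at most 101 counts in any library.

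Nr3c1 (chr18:39410545-39519421, minus strand) encodes the glucocorticoid receptor, which is occupied mainly when corticosterone is high. At week 8 it had 191 and 62.5 CPM in IUGR and 181 and 72.4 CPM in NS. At postnatal day 3 it had 52.7 and 42.3 CPM in IUGR and 56.4 and 55.3 CPM in NS. The 4 week 8 libraries were all above the 4 day 3 libraries, but in both groups replicate 1 stood far above replicate 2 at week 8, by 3.06 times in IUGR and 2.5 times in NS. The log2 fold change over age was 1.52 ± 0.60 in IUGR (edgeR, adjusted p = 0.128) and 1.21 ± 0.60 in NS (adjusted p = 0.213), so neither was called. Without both week 8 replicate 2 libraries the values were 2.12 (adjusted p = 0.000176) and 1.72 (adjusted p = 0.000428), with 41.4% and 37.9% of all tested genes then called. The replicate 1 libraries differed by 1.84 in IUGR and 1.67 in NS on the log2(CPM + 1) scale between ages, and the replicate 2 libraries by 0.55 and 0.38. How far the split between week 8 libraries enters the receptor's level was not tested.

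Hsd11b1 (chr1:193221634-193264075, minus strand) encodes the enzyme that restores active glucocorticoid, and it had the largest age difference of the 8 tested genes. At week 8 it had 45.8 and 43.7 CPM in IUGR and 58.2 and 33.0 CPM in NS. The day 3 level was 4.59 and 3.80 CPM in IUGR and 6.12 and 3.03 CPM in NS. The lowest week 8 library was thus several times above the highest day 3 library. The fold was 11.4 in IUGR (log2 fold change 3.52 ± 0.44, edgeR adjusted p = 0.00639) and 10.2 in NS (3.34 ± 0.44, adjusted p = 0.0081). Replicate 1 and replicate 2 libraries taken apart gave log2(CPM + 1) differences of 3.06 and 3.22 in IUGR and 3.05 and 3.08 in NS. Lamb3, which overlaps it on the opposite strand, had at most 26 counts in a library.

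Hsd11b2 (chr8:105518755-105523988, plus strand), which inactivates corticosterone and is known for guarding the mineralocorticoid receptor in kidney, was close to the detection floor. It had 1 and 2 counts in IUGR and 4 and 0 counts in NS at week 8. At day 3 it had 4 and 15 counts in IUGR and 4 and 5 counts in NS. The limit set by a count of 0 is 3 counts, 0.158 to 0.23 CPM depending on the library, and covers counting error only. The gene did not pass the count filter, and differences between groups were not detectable at this depth.

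Fkbp4 (chr6:128429735-128438677, minus strand) encodes an immunophilin that travels with HSP90 and steroid receptors and promotes their hormone binding. At week 8 it had 153 and 94.8 CPM in IUGR and 156 and 111 CPM in NS. In day 3 hippocampi it had 239 and 237 CPM in IUGR and 229 and 238 CPM in NS. It was the 1 gene of the group whose 4 week 8 libraries all lay below the 4 day 3 libraries, and replicate 2 was the lower one in both week 8 groups. Over age, its log2 fold change was -0.83 ± 0.29 in IUGR (edgeR, adjusted p = 0.0947) and -0.78 ± 0.29 in NS (adjusted p = 0.12), which did not pass. Without both week 8 replicate 2 libraries, with 1 library left in each week 8 group, it was -0.52 in IUGR and -0.56 in NS. Without IUGR week 8 replicate 1, with 1 library left in that group, it was -1.22 in IUGR.

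Crhbp (chr13:95431371-95444924, minus strand) encodes the secreted protein that binds CRH and limits its access to receptors. At week 8 it had 15.9 and 21.2 CPM in IUGR and 16.4 and 21.4 CPM in NS. In day 3 hippocampi there were 3.52 and 4.91 CPM in IUGR and 5.98 and 3.65 CPM in NS. The ages did not overlap, and at week 8 replicate 2 was the higher library in both groups. The log2 fold change over age was 2.24 ± 0.37 in IUGR (edgeR, adjusted p = 0.0128) and 2.00 ± 0.37 in NS (adjusted p = 0.0196).

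Crh (chr3:19693401-19695396, minus strand), the peptide itself, was rare at both ages. At week 8 it had 1.35 and 2.13 CPM in IUGR and 0.921 and 3.16 CPM in NS, from 20, 31, 12 and 60 counts. The day 3 level was 1.76 and 1.10 CPM in IUGR and 1.10 and 0.913 CPM in NS. The ages overlapped, and at week 8 replicate 2 was the higher library in both groups. The week 8 sum of 13 interneuron markers was also higher in replicate 2 (811 and 1176 CPM in IUGR, 777 and 1349 in NS). In that sum Cck had 148 and 324 CPM in IUGR and 137 and 387 CPM in NS. Gad2 differed less, with 134 and 146 CPM in IUGR and 148 and 155 CPM in NS. The granule cell and hippocampal field marker sum was higher too (360 and 1004 CPM in IUGR, 450 and 1078 in NS). The part of these cell types in the Crh level was not tested. The log2 fold change over age was 0.39 ± 0.67 in IUGR (edgeR, adjusted p = 0.72) and 1.07 ± 0.68 in NS (adjusted p = 0.323). The NS value was -0.11 without both week 8 replicate 2 libraries.

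Crhr1 (chr11:104132855-104175523, plus strand), the receptor that CRH binds with high affinity in forebrain neurons, had 8.25 and 7.13 CPM in IUGR and 4.37 and 9.21 CPM in NS at week 8. The day 3 libraries had 8.28 and 13.6 CPM in IUGR and 10.5 and 13.7 CPM in NS. Within IUGR and within NS the week 8 libraries lay below the day 3 libraries, but across the 8 libraries the ages overlapped. Over age, its log2 fold change was -0.40 ± 0.43 in IUGR (edgeR, adjusted p = 0.55) and -0.80 ± 0.44 in NS (adjusted p = 0.256). In NS it was -1.45 without both week 8 replicate 2 libraries, which left 1 library in each week 8 group.

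Crhr2 (chr6:55090049-55133016, minus strand), the receptor preferred by urocortins, had 0.338 and 1.10 CPM in IUGR and 1.92 and 2.00 CPM in NS at week 8. At day 3 it had 1.36 and 0.882 CPM in IUGR and 0.413 and 2.00 CPM in NS. Its values came from 5 to 38 counts, and the day 3 groups overlapped. Choroid plexus is a known site of Crhr2 expression in rats, and at day 3 the 4 libraries had the same order in Crhr2 and in the sum of 10 choroid plexus markers, which was 3244 and 459.7 CPM in IUGR and 95.9 and 6314 CPM in NS. At week 8 the marker sum was 77.4 and 70.7 CPM in IUGR and 6785 and 88.0 CPM in NS, where the same 2 NS libraries had 1.92 and 2.00 CPM of Crhr2. The part of choroid plexus in the Crhr2 level was not tested. The log2 fold change over age was -0.54 ± 0.87 in IUGR (edgeR, adjusted p = 0.698) and 0.72 ± 0.83 in NS (adjusted p = 0.589).

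**Figure D2:**
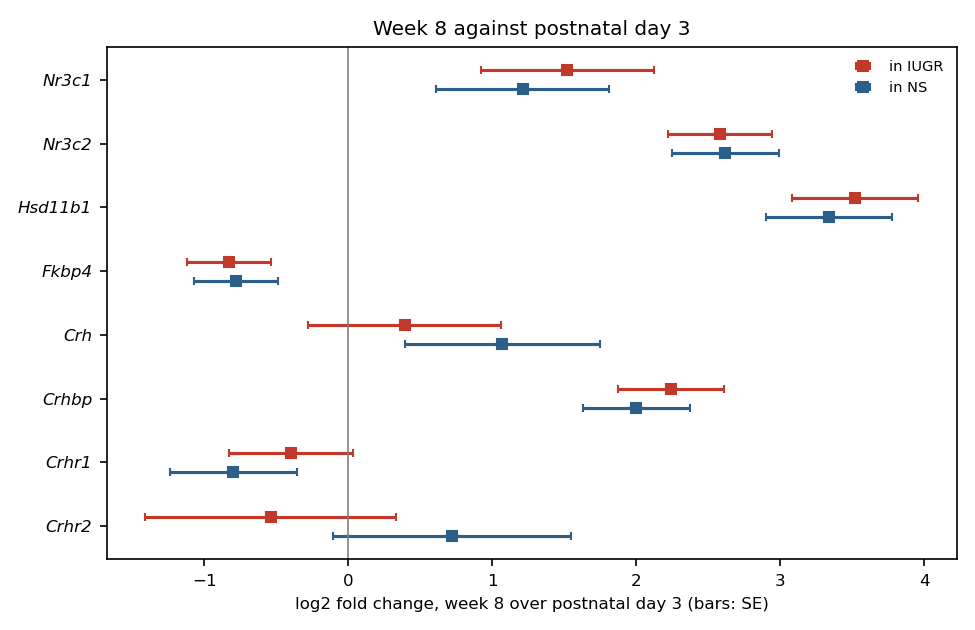
Log2 fold change of week 8 over postnatal day 3 (x axis) for the 8 tested genes (y axis), in IUGR (red) and in NS (blue); squares are edgeR estimates and bars ± 1 standard error. Hsd11b1, Nr3c2 and Crhbp lie at 2 or more in both groups, and the IUGR and NS estimates of each gene are within 1 standard error of each other for these 3.

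The calls of the 3 age genes changed with the libraries in the fit, and the cause was not tested. In IUGR, DESeq2 on all libraries called these 3 and also Nr3c1 (adjusted p = 0.0467) and Fkbp4 (adjusted p = 0.0441), among 28.6% of all tested genes. In NS it called these 3, among 25.7% of all tested genes. The log2 fold changes of the 3 stayed within 1.95 and 3.67 in IUGR and 1.68 and 3.92 in NS over 19 alternatives, all above 0. Nr3c2, Hsd11b1 and Crhbp were no longer called in either group without both day 3 replicate 2 libraries, whose Xist counts went against their label. Each day 3 group then held 1 library, so the spread came from the week 8 pairs alone. The log2 fold changes of the 3 genes were then 2.48, 3.37 and 2.48 in IUGR and 2.19, 2.91 and 1.68 in NS. In that edgeR fit no gene in the tables was called in either age comparison, with 2108 genes in IUGR and 1791 in NS at an unadjusted p under 0.05. The fit without both week 8 replicate 2 libraries left 1 library in each week 8 group. There the log2 fold changes of Nr3c2, Hsd11b1 and Crhbp were 2.41, 3.56 and 2.03 in IUGR. In NS they were 2.69, 3.70 and 1.79. Fitted on NS libraries alone the edgeR adjusted p was 0.0579 for Nr3c2, 0.0555 for Hsd11b1 and 0.0734 for Crhbp. Each fit without a single library left 1 library in the group of that library. Among single libraries, in IUGR all 3 calls were lost without IUGR day 3 replicate 1 or replicate 2 (adjusted p from 0.0751 to 0.119), and that of Crhbp without IUGR week 8 replicate 2 (0.0531). In NS, Nr3c2 missed the threshold without NS day 3 replicate 2 (0.0735) and Hsd11b1 without NS day 3 replicate 1 (0.0608) or 2 (0.0804). Crhbp missed it in NS without NS day 3 replicate 1 (0.0992) or 2 (0.157), NS week 8 replicate 2 (0.0552), or IUGR day 3 replicate 1 (0.0501) or 2 (0.0503).

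Set per kb of the gene length listed in the tables, Fkbp4 was the most abundant transcript of the group at both ages, with a mean of 57.2 CPM per kb in IUGR and 61.5 in NS at week 8 and 109.7 in IUGR and 107.6 in NS at day 3. By its mean, Hsd11b1 followed Fkbp4 at week 8 (31.0 in IUGR and 31.5 in NS). Its range over the 2 libraries overlapped that of Nr3c2 in NS and was separate from it in IUGR. At day 3 Nr3c1 followed Fkbp4 (7.50 in IUGR and 8.82 in NS). At week 8 Nr3c2 (23.5 in IUGR and 29.5 in NS), Nr3c1 (20.1 and 20.0) and Crhbp (11.03 and 11.24) came next. Among them, the ranges of neighbouring genes overlapped in both groups. At day 3 Crhr1 (4.51 in IUGR and 4.99 in NS) and Nr3c2 (4.21 and 4.88) could not be ordered, nor could Hsd11b1 (2.905 and 3.165) and Crhbp (2.505 and 2.867). Crh, Crhr2 and Hsd11b2 closed the order in every group, with means of at most 1.545 CPM per kb.

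The balance of functionally opposed or competing pairs was then compared between ages, as the ratio of counts per kb in each library, with exact permutation tests of 4 week 8 against 4 day 3 libraries (two-sided, smallest possible p 0.0286, adjusted over the 4 ratios). The Nr3c2 to Nr3c1 ratio was 0.683 and 2.66 in IUGR and 1.09 and 2.44 in NS at week 8. The day 3 ratio was 0.537 and 0.592 in IUGR and 0.735 and 0.368 in NS. One week 8 library, IUGR replicate 1, lay below the highest day 3 library, and the mean log2 difference was 1.45 (pooled SD 0.73, exact permutation p = 0.0571, adjusted 0.0762). It was 0.46 among replicate 1 libraries and 2.45 among replicate 2 libraries.

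The Crhbp to Crh ratio was 9.23 and 7.83 in IUGR and 13.9 and 5.33 in NS at week 8. The day 3 ratio was 1.57 and 3.49 in IUGR and 4.27 and 3.14 in NS. The ages were separate, with a mean log2 difference of 1.55 (pooled SD 0.60, exact permutation p = 0.0286, adjusted 0.0571). The exact 95% intervals of the closest libraries, for counting error only, overlapped. They ran from 2.49 to 7.8 for NS day 3 replicate 1 and from 4.05 to 7.11 for NS week 8 replicate 2. The Hsd11b1 to Hsd11b2 ratio, with 3 counts in place of the count of 0, was 866 and 408 in IUGR and 242 and 267 in NS at week 8. At day 3 it was 25.9 and 5.89 in IUGR and 28.5 and 13.6 in NS, again without overlap (log2 difference 4.64, pooled SD 0.95, exact permutation p = 0.0286, adjusted 0.0571), but its denominator rested on 0 to 15 counts. The week 8 ratios of 866 and 408 rested on 1 and 2 counts of Hsd11b2, and their exact (Clopper-Pearson) 95% intervals, for counting error only, ran from 155 to 34266 and from 113 to 3378. With 3 counts in place of every count under 3, a setting chosen after seeing the data, the week 8 ratio was 289 and 272 in IUGR and 242 and 267 in NS, the last a lower bound. The log2 difference was then 4.10 (exact permutation p = 0.0286, adjusted 0.0571). The Crhr1 to Crhr2 ratio overlapped between ages (log2 difference -0.83, pooled SD 1.23, exact permutation p = 0.4, adjusted 0.4). Between IUGR and NS within an age, 2 libraries against 2 cannot give a p below 0.333, and no such test was made.

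**Figure D3:**
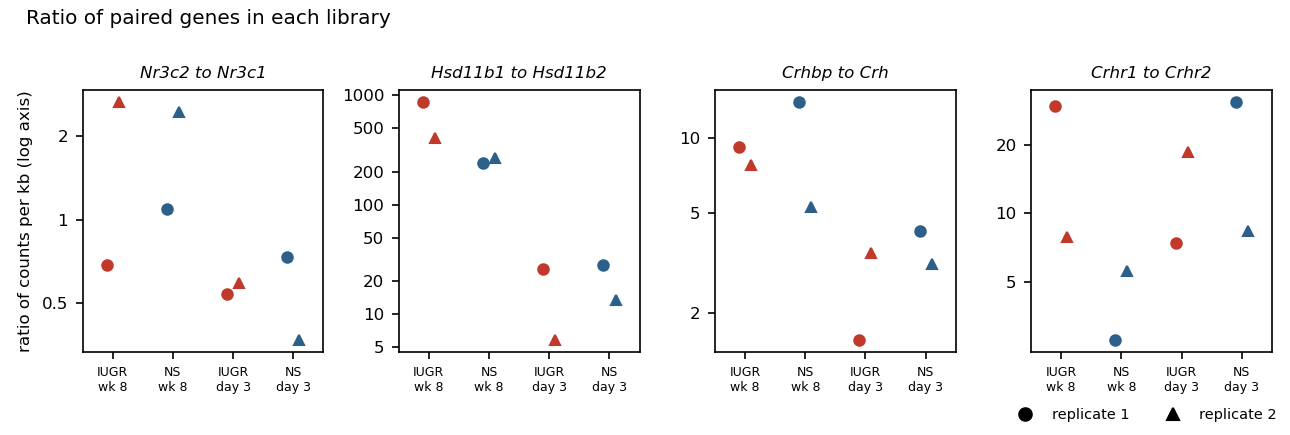
Ratio of counts per kb for 4 pairs of genes (y axis, log scale) in each IUGR and NS library at week 8 and postnatal day 3 (x axis); circles are replicate 1 and triangles replicate 2. The Hsd11b1 to Hsd11b2 and Crhbp to Crh ratios of the 4 week 8 libraries lie above those of the 4 day 3 libraries, and the Nr3c2 to Nr3c1 ratio is split by replicate at week 8.

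Between IUGR and NS offspring, none of the 8 tested genes was called at week 8 or at day 3, and 0 of 15999 genes (0%) were called at either age in edgeR. At an unadjusted p under 0.05 there were 160 genes at week 8 and 96 at day 3, none of them among the 9. DESeq2 on all libraries called 1 gene (0.00625%) at week 8 and 0 at day 3, and DESeq2 on each age alone called 1 (0.0066%) and 65 (0.421%), again none of the 9. The difference of the IUGR effect between ages was called for 0 genes in edgeR (82 at an unadjusted p under 0.05) and 0 in DESeq2 on all libraries. The median log2 fold change of the 8 genes was 0.01 at week 8 and -0.13 at day 3, beside 0.02 and 0.01 over all tested genes.

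The estimates for the receptors were small against their errors. For Nr3c1 the log2 fold change of IUGR over NS was 0.08 ± 0.59 (SE) at week 8 and -0.23 ± 0.59 at day 3. For Nr3c2 it was -0.25 ± 0.34 at week 8 and -0.21 ± 0.35 at day 3. Both Nr3c2 values of week 8 in IUGR were below both in NS, and both Nr3c1 values of day 3 in IUGR were below both in NS. Such separation of 2 against 2 libraries in either direction was found for 13.1% of tested genes at week 8 and 36.3% at day 3. For Hsd11b1 the log2 fold change was 0.05 ± 0.40 at week 8 and -0.12 ± 0.41 at day 3, and for Fkbp4 -0.03 ± 0.29 and 0.03 ± 0.29, the smallest errors of the group.

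In the CRH system, Crhbp had a log2 fold change of IUGR over NS of 0.05 ± 0.35 at week 8 and -0.20 ± 0.36 at day 3. Crh had -0.18 ± 0.67 at week 8 and 0.51 ± 0.69 at day 3, where both IUGR libraries were above both NS libraries (31 and 20 counts against 16 and 16). Crhr1 had 0.24 ± 0.44 at week 8 and -0.15 ± 0.43 at day 3. The largest estimate was that of Crhr2 at week 8, at -1.37 ± 0.87 (edgeR, unadjusted p = 0.161, adjusted p = 1), where both IUGR libraries lay below both NS libraries, and it was -0.12 ± 0.84 at day 3. The Crhr2 values rested on 5 and 16 counts in IUGR and 25 and 38 counts in NS. Over 22 alternatives its week 8 log2 fold change ranged from -2.44 to -0.77, with adjusted p from 0.626 to 1. Errors of 0.29 to 0.87 on the log2 scale leave differences of moderate size undetectable with 2 libraries per group.

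**Figure D4:**
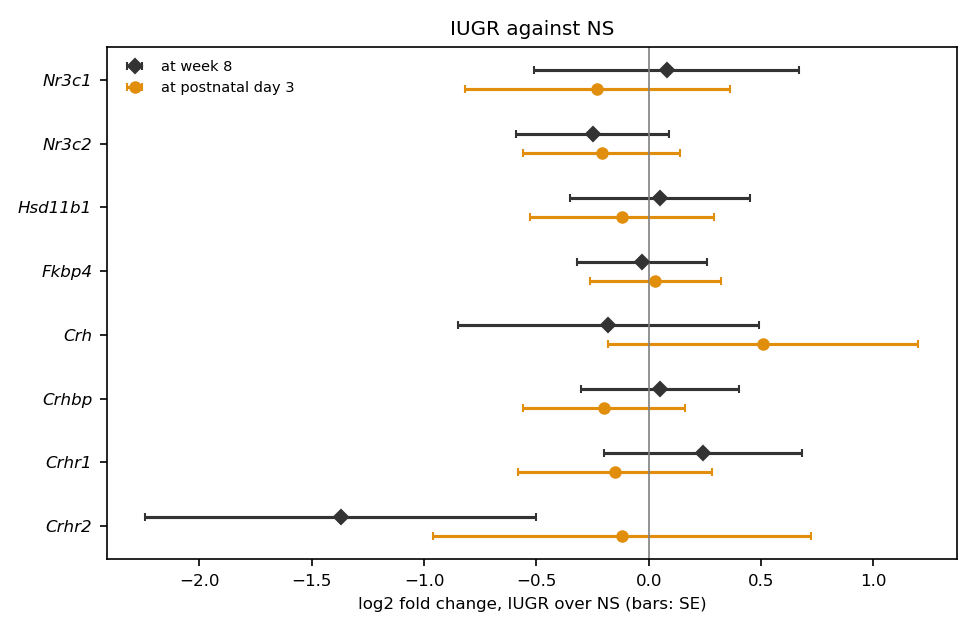
Log2 fold change of IUGR over NS (x axis) for the 8 tested genes (y axis) at week 8 (dark diamonds) and postnatal day 3 (orange circles); bars are ± 1 standard error from edgeR. The week 8 estimate of Crhr2, at -1.37, is the farthest from 0, and no estimate passed the test.

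The partners of these genes were examined in gene lists, which were compared in the same fits. No listed gene was called between IUGR and NS at either age. Of 12 receptor chaperones and cochaperones, 0 were called with age in either group (16.8% of all tested genes in IUGR, 14.1% in NS). Their median log2 fold change was 0.11 in IUGR and 0.14 in NS, beside 0.02 and 0.04 over all tested genes. Of 12 receptor coregulators, 1 was called lower and 0 higher with age in each group. Over all tested genes, 7.48% were called lower in IUGR and 6.43% in NS. The called gene was the deacetylase gene Hdac2. At week 8 it had 97.2 and 106 CPM in IUGR, against 330 and 295 CPM at day 3. In NS it had 120 and 72.5 CPM, against 259 and 274 CPM. Of 10 tested genes for steroid synthesis, conversion and transport, 0 were called with age (16.8% of all tested genes in IUGR, 14.1% in NS). The median log2 fold change of the 10 was 0.09 in IUGR and -0.04 in NS.

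Of 8 genes that process and package neuropeptides, 3 rose with age in both groups and 0 fell, where 9.34% of all tested genes rose in IUGR and 7.7% in NS. The median log2 fold change of the 8 was 1.50 in IUGR and 1.27 in NS, beside 0.02 and 0.04 over all tested genes. The 3 that rose were the carboxypeptidase Cpe (log2 fold change 2.11 ± 0.40 in IUGR and 2.03 ± 0.40 in NS), the prohormone convertase Pcsk2 (1.85 ± 0.32 and 1.74 ± 0.32) and the amidating enzyme Pam (1.15 ± 0.27 and 1.09 ± 0.27). Of 15 tested genes of signalling from CRH receptors through Gs and cyclic AMP, the exchange factors Rapgef3 (named after its values were seen) and Rapgef4 and the cyclase Adcy9 rose in both groups, and the kinase subunit Prkar2b fell. These are 3 of 15 higher and 1 of 15 lower, where 9.34% of all tested genes rose and 7.48% fell in IUGR, and 7.7% rose and 6.43% fell in NS. Rapgef4 had 607 and 581 CPM at week 8 against 54.3 and 79.2 CPM at day 3 in IUGR, and 564 and 446 CPM against 74.8 and 72.7 CPM in NS. Prkar2b had 53.8 and 33.1 CPM at week 8 against 286 and 260 CPM at day 3 in IUGR, and 39.8 and 32.5 CPM against 195 and 259 CPM in NS.

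Of 7 genes that glucocorticoid receptor activity is known to induce, 3 were called higher with age in IUGR and 2 in NS, and 0 lower, where 9.34% of all tested genes were called higher in IUGR and 7.7% in NS. Klf9 (log2 fold change 2.87 ± 0.53 in IUGR and 2.57 ± 0.52 in NS) and Zbtb16 (1.88 ± 0.29 and 2.32 ± 0.30) were called in both. Tsc22d3, which encodes the anti-inflammatory protein GILZ, was called in IUGR (1.04 ± 0.25, edgeR adjusted p = 0.0345) and missed the threshold in NS (0.70 ± 0.25, adjusted p = 0.104), and the difference between the groups was not called for any gene. Among 6 tested genes of the CRH family and pituitary axis, 1 was called lower and 0 higher with age in each group. Over all tested genes, 7.48% were called lower in IUGR and 6.43% in NS. The called gene was the vasopressin receptor gene Avpr1a. It had 0.27 and 0 CPM at week 8 in IUGR, against 4.76 and 6.34 CPM at day 3. In NS it had 0.307 and 0 CPM, against 5.16 and 4.85 CPM. Its week 8 libraries were near the floor, so no fold is given. Pomc, the precursor of corticotropin, had the smallest unadjusted p of its list between IUGR and NS at week 8, with 2.03 and 2.19 CPM in IUGR and 0.691 and 0.737 CPM in NS (log2 fold change 1.63 ± 0.43, edgeR unadjusted p = 0.00765, adjusted p = 1).

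The genes whose log2(CPM + 1) profile over the 8 libraries was most like that of each gene were listed as a description. The libraries share their ages and, at week 8, the split by replicate number, so high values of Pearson's r are common. Nr3c2 and Hsd11b1 had an r of 0.99 with each other. For Hsd11b1 the most alike of 11638 genes included Rab3gap1 (0.997) and Chpt1 (0.996), with 488 genes at 0.95 or above. For Nr3c2 they were Nkain4 (0.993), Wscd1 (0.992) and Nde1 (0.992), with 450 genes, and for Crhbp Fam212b (0.996), Gstm1 (0.995) and Tsc22d4 (0.995), with 736. Nr3c1 was most like Atp9b (0.991), Fmn1 (0.988) and Bbx (0.987), with 69 genes. These 3 were higher in replicate 1 at week 8 in both groups, as with Fmn1 at 80.7 and 13.9 CPM in IUGR and 84.0 and 16.2 CPM in NS. Fkbp4 was most like Imp4 (0.998), Hist1h1c (0.996) and Asxl3 (0.996), with 816 genes. Crh was most like Emx2 (0.965), Pou6f1 (0.959) and Proser1 (0.949), Crhr1 like Usp5 (0.965), Dctn2 (0.962) and Cpne5 (0.961), and Crhr2 like Top3b (0.929), Slc4a2 (0.859) and Usp40 (0.844), with at most 4 genes at 0.95 or above for any of them.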

How the data were processed

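RNA of 8 hippocampal libraries (4 groups of 2) was used. For each age the authors deposited a table of unnormalized read counts by gene symbol, with a gene length, and these counts were the input of every test. Their normalized tables were not used here. Per the submitters' processing notes, featureCounts 1.6.1, HISAT2 2.1.0, cutadapt 1.16, SAMtools 1.9 and DESeq2 1.26.0 were used with the build mm10. Not given in the sources used here are the annotation release, strandedness and the treatment of multiply matching reads, so reads of overlapping genes on opposite strands cannot be told apart.

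Groups came from the treatment and stage labels. edgeR 4.0.16 (R 4.3.3) fitted the 4 group means to all 8 libraries at once (TMM scaling, default filter by group, quasi-likelihood F test, Benjamini-Hochberg adjustment over 15999 genes, threshold 0.05). A standard error is the log2 fold change divided by the square root of F. The step was run on simulated counts with less spread than these libraries and no split by replicate number, which checks the computation only. CPM is the count over the library total, and totals of 13030277 to 18993050 set the floor of 3 counts. The alternatives were other scaling factors, other filters, DESeq2 1.42.0, limma 3.58.1 voom, subsets of libraries and the replicate number as a block. The 9 genes were always named. From each list, up to 3 genes called with age and, per IUGR comparison, the called ones or the 1 with the smallest p could be named, and for likeness the 3 most alike genes of at least 5 CPM that are not gene models. Some results under this rule are not reported here. The genes, lists and tests were chosen with earlier results of these data known. Gene positions are from GENCODE M21 and promoter windows from RefSeq.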

Additional observations from a re-analysis of the deposited data

How the results depend on the processing

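Of 800 values of the 8 tested genes under alternatives, 707 kept their direction and side of the threshold. Another 11 passed it only under the alternative, 24 no longer passed and 58 changed sign. None of those that changed sign was called. All-gene calls for IUGR over NS, 0 in edgeR, were 65 at day 3 and 1 at week 8 with DESeq2 on each age alone, and 1 at week 8 with DESeq2 on all libraries. With age, edgeR on all libraries called 2691 genes and 3 of the 9 in IUGR, and 2261 and 3 in NS. DESeq2 on all libraries called 4581 genes and 5 of the 9 in IUGR, and 4116 genes in NS. Without both week 8 replicate 2 libraries there were 6778 genes and 5 of the 9 in IUGR, and 6201 and 6 in NS. Without both day 3 replicate 2 libraries there were 0 and 0 in both groups. edgeR on each treatment alone called 1497 genes in IUGR, and 310 genes and 0 of the 9 in NS. Leaving out 1 library at a time gave 0 to 4 of the 9 and 92 to 4069 genes in IUGR, and 0 to 3 of the 9 and 51 to 3801 genes in NS. The fewest genes were called without IUGR day 3 replicate 1 in IUGR and without NS day 3 replicate 2 in NS. The log2 age difference of the Nr3c2 to Nr3c1 ratio was 0.46 in replicate 1 and 2.45 in replicate 2 libraries. Beyond the library splits, the causes were not tested.

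The labels do not pair the replicate numbers, and differences between replicates 1 and 2 correlated between IUGR and NS across 14637 genes with r = 0.862 at week 8 and -0.082 at day 3. With the replicate block, age calls were 5550 genes and 5 of the 9 in IUGR (Nr3c1 and Fkbp4 added) and 5050 genes in NS (Nr3c1 added). IUGR over NS calls with the replicate block in DESeq2 on each age alone were 3 at week 8 and 13 at day 3.

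Log2 fold changes that changed sign without having been called follow. IUGR over NS at week 8 was -0.02 and -0.03 for Hsd11b1, and -0.01 and -0.03 for Crhbp, with upper-quartile factors and with library totals. With the replicate block on each age alone it was -0.001 (edgeR) and -0.01 (DESeq2) for Nr3c1 and 0.01 (DESeq2) for Crh. Without both week 8 replicate 2 libraries it was -0.26 for Hsd11b1, 0.06 for Fkbp4 and 0.64 for Crh. At day 3 it was -0.004 for Fkbp4 with upper-quartile factors. For Crhr2 at day 3 it was 0.16 with voom, 0.07, 0.06 and 0.20 with the replicate block (edgeR on all libraries, edgeR and DESeq2 on day 3 alone) and 1.71 without both day 3 replicate 2 libraries. The difference of the IUGR effect between ages was 0.29 for Nr3c2 without both day 3 replicate 2 libraries, and -0.14 for Hsd11b1, 0.04 for Fkbp4 and 0.14 for Crh without both week 8 replicate 2 libraries. Crh over age was -0.48 in IUGR with the replicate block and -0.11 in NS without both week 8 replicate 2 libraries.

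Leaving out 1 library at a time, IUGR over NS at week 8 ranged from -0.95 to 0.87 for Nr3c1, -0.28 to 0.49 for Hsd11b1, -0.42 to 0.28 for Fkbp4, -0.80 to 1.00 for Crh, -0.18 to 0.27 for Crhbp and -0.20 to 0.91 for Crhr1. At day 3 it ranged from -0.64 to 0.37 for Nr3c2, -0.55 to 0.45 for Hsd11b1, -0.02 to 0.05 for Fkbp4, -0.51 to 0.18 for Crhbp, -0.54 to 0.13 for Crhr1 and -0.85 to 1.42 for Crhr2. The difference between ages ranged from -0.69 to 1.12 for Nr3c1, -0.63 to 0.39 for Nr3c2, -0.40 to 0.64 for Hsd11b1, -0.43 to 0.25 for Fkbp4, -1.29 to 0.50 for Crh, -0.14 to 0.56 for Crhbp and -0.03 to 1.05 for Crhr1. Over age, Crhr2 ranged from -1.61 to 0.07 in IUGR and -0.01 to 2.25 in NS, and Crh from -0.12 to 1.67 in NS. Hsd11b2, with 0 to 15 counts, is limited by depth.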

Other observations

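Of the 7 genes that glucocorticoid receptor activity is known to induce, 3 that were not called with age are described here. They were chosen after their values were seen. Fkbp5, a cochaperone that lowers the hormone affinity of the receptor, had 32.2 and 168 CPM in IUGR and 38.6 and 109 CPM in NS at week 8 (replicates 1 and 2), against 39.0 and 41.4 CPM in IUGR and 35.1 and 37.5 CPM in NS at day 3. The kinase gene Sgk1 had 53.3 and 168 CPM in IUGR and 55.4 and 108 CPM in NS at week 8. The clock gene Per1 had 45.1 and 65.6 CPM in IUGR and 39.9 and 96.7 CPM in NS. In both groups these 3 were higher in the replicate 2 libraries, in which Nr3c1 was lower. Whether their levels relate to that of Nr3c1, apart from the split between week 8 libraries, was not tested. Dusp1, a phosphatase gene of the same list, had no such split, with 14.3 and 14.7 CPM in IUGR and 13.5 and 13.3 CPM in NS at week 8. Of all 15999 tested genes, 39.7% were higher and 41.7% lower in replicate 2 in both groups at week 8. Of the 7 genes, 6 were higher and 0 lower in this way, and the 6 included Klf9, Zbtb16 and Tsc22d3. At day 3 Sgk1 had 42.0 and 47.9 CPM in IUGR and 41.3 and 54.0 CPM in NS, and Per1 had 23.7 and 23.1 CPM in IUGR and 22.8 and 26.4 CPM in NS.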
